A study of Homo sapiens with 16 samples.

Results

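A set of 41 gene symbols covering the cytosolic aminoacyl-tRNA synthetases and the ATF4 amino acid response was followed through RNA-seq of SK-N-BE(2)C cells. This neuroblastoma line is of the adrenergic type and carries amplified MYCN. Members were chosen by symbol, not by a measured value, from the 27037 symbols of the count table. They were chosen with earlier results of these data known, so counts of members are descriptions. They comprised 7 regulators of the ATF4 response, 19 cytosolic synthetases, 10 enzymes of amino acid and one-carbon synthesis and 5 amino acid transporters. Of these, 40 were among the 15415 genes tested, and VARS1, the valyl-tRNA synthetase, was not. The 16 samples formed 4 groups of 4 replicates that differed only in treatment: DMSO, the vehicle, RA (10 µM all-trans retinoic acid, a differentiating agent), PB (1 µM palbociclib, an inhibitor of CDK4 and CDK6) and PB+RA (both agents at those doses). Treatment lasted 5 days. All groups came from the same line, and according to the study's methods biological replicates were different passages of it.

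ATF4 is a transcription factor whose protein is made mainly when the translation factor eIF2 is phosphorylated, as happens when cells lack an amino acid or are otherwise stressed. It binds with C/EBP partners to the promoters of genes that charge tRNA, make serine, glycine and asparagine and import amino acids, and of regulators such as DDIT3, TRIB3, CHAC1 and SESN2 that shape the stress response. Several of the same synthesis genes are also known targets of MYC proteins, and one-carbon enzymes supply units for nucleotide synthesis in dividing cells. The comparisons ask how the RNA of these genes stood after each agent alone, after both, and whether the joint effect differed from the sum of the single ones. RNA was measured in bulk, so a smaller share of cells with a transcript and less transcript per cell cannot be told apart. Neither ATF4 protein nor eIF2 phosphorylation was measured here.

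ATF4 and its C/EBP partners bind a composite element, searched here as the letters TGATGNAA on either strand within the 250 bases before the transcript start. RefSeq promoters (GRCh38.p14) were found for 34 of the 41 members. The element occurred in 4 of these 34, which is 11.8%, against 3.14% of all 35116 promoters in the table. The 4 were ASNS, IARS1, CHAC1 and AARS1, and they are printed 5′ to 3′ on the strand of the gene, with the element in capitals, because they are the members whose promoter window holds these letters.
ASNS: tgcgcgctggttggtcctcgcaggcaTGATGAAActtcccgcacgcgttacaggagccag
IARS1: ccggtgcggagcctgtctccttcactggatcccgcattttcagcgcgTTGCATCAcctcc
CHAC1: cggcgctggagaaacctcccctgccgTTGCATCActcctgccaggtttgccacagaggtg
AARS1: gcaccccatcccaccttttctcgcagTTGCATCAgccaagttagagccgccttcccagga
These windows lay at chr7:97872443-97872502 (minus strand), chr9:92293698-92293757 (minus strand), chr15:40953236-40953295 (plus strand) and chr16:70289660-70289719 (minus strand). The elements began 68, 13, 209 and 187 bases before the respective start. IARS1, CHAC1 and AARS1 held the same 8 letters, which are the element read on the opposite strand. The E-box CACGTG, a site bound by MYC family and other factors, occurred in 5 of 34 windows (IARS1, ALDH18A1, MTHFD1, SLC7A5 and ATF4), 14.7% against 6.34% of all promoters. No binding was measured.

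Total counts were 19.5 to 31.6 M per library. Within each group, replicates 1 and 2 resembled each other, and so did replicates 3 and 4, more than libraries taken across these pairs. The third principal component, with 10.7% of the variance, separated the pairs in every group. The chi-square per degree of freedom between libraries of a group was 3.11 to 9.66 within the pairs and 12.5 to 31.1 across them. Values within each pair are therefore given where a member's call differed between them. The adrenergic markers PHOX2A and HAND2 were at a mean of at least 881 and 720.0 CPM (a gene's counts scaled by the library total) in every group. Of the mesenchymal markers, YAP1, WWTR1 and NOTCH2 did not exceed a mean of 11.9 CPM, CD44 reached 149.5 in PB, FN1 was at 175 in DMSO and 733 in RA, and PRRX1 had no row. The proliferation marker MKI67 averaged 456 CPM in DMSO, 407 under RA, 149.6 under PB and 63.1 under PB+RA. TOP2A (529.7 to 95.8) and MCM2 (392 to 148) were likewise lowest in PB+RA.

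A gene was called higher or lower where the adjusted p was below 0.05 and the absolute log2 fold change exceeded 0.5. Against DMSO, RA gave 6 members higher and 1 lower, beside 10.8% and 2.54% of all tested genes. PB gave 4 higher and 6 lower, beside 16.9% and 11.3%. PB+RA gave 5 higher and 7 lower, beside 24% and 17.9%. The 12 of 40 members called after PB+RA were a smaller share than the 41.9% of all genes, and the median log2 fold change of the members was -0.12 against 0.04 for all genes. The classes moved in different directions. Regulators were called higher in 3 of 7 cases and lower in none, and synthesis enzymes were called lower in 5 of 10 and higher in 1. Of the 18 tested synthetases, 1 rose and 1 fell, and of the 5 transporters 1 fell. With no fold minimum, members passing the adjusted p as higher and lower numbered 11 and 17 for PB, beside 28.4% and 25.2% of all genes. They numbered 17 and 5 for RA (18.8% and 16.4%), and 9 and 19 for PB+RA (34.7% and 31.4%). All of these comparisons share the DMSO libraries.

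**Figure D1:**
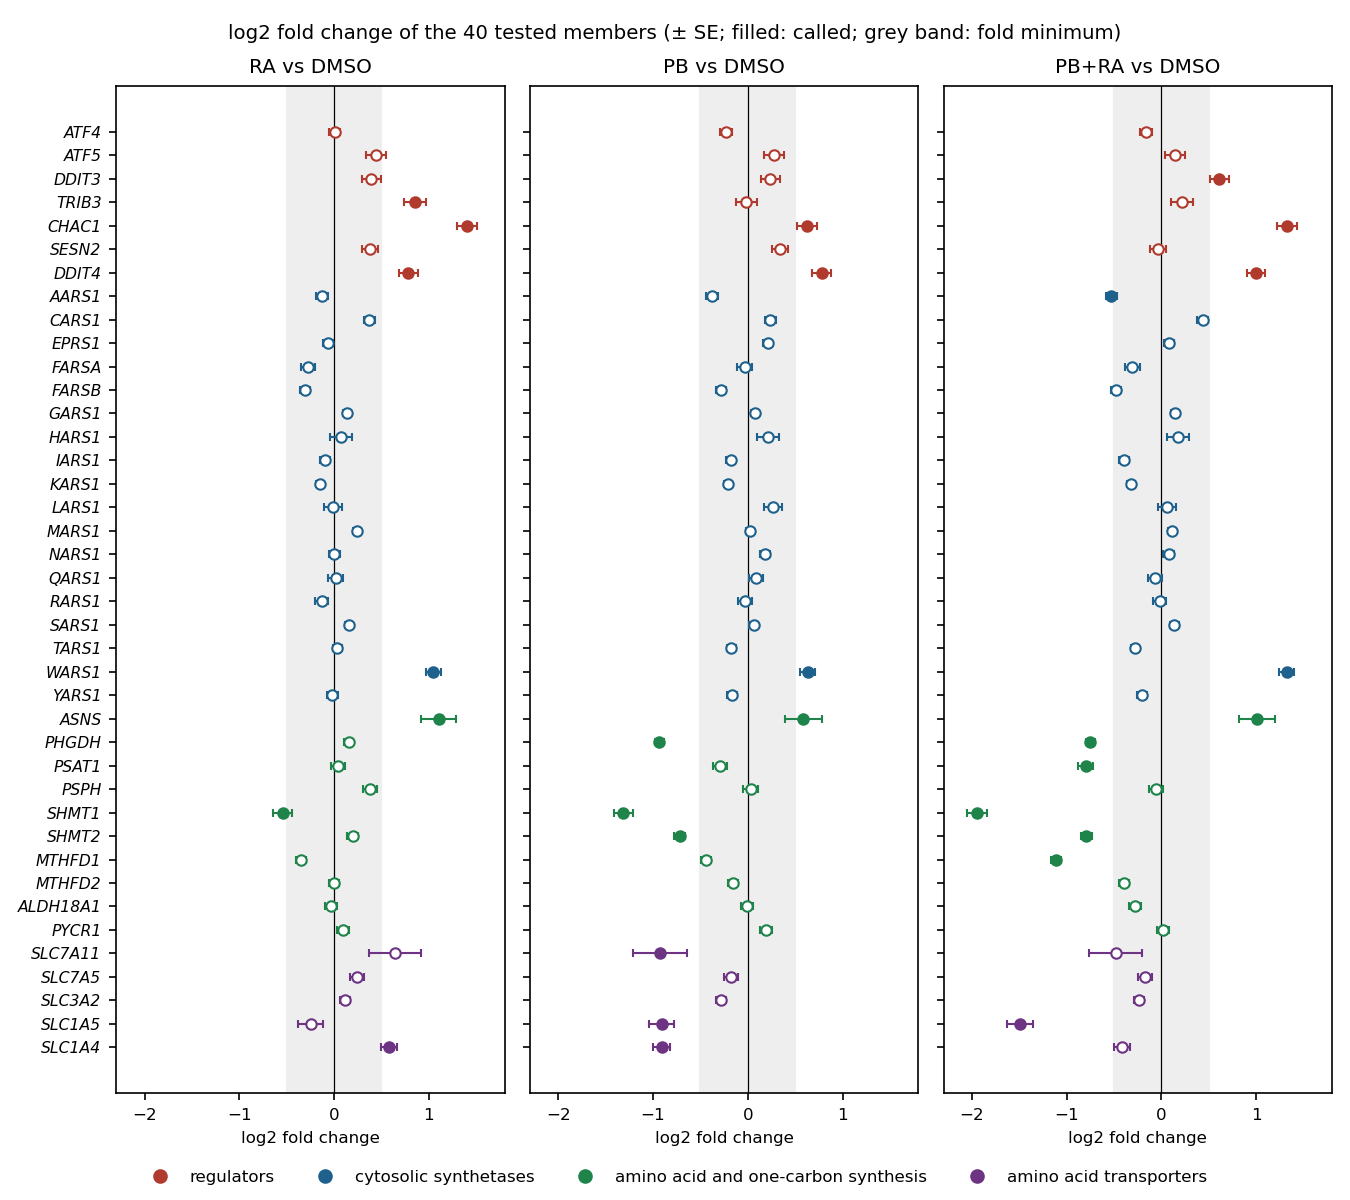
Log2 fold change against DMSO (x axis, ± SE) of the 40 tested members (rows, coloured by class) after RA, PB and PB+RA. Filled points were called, and the grey band marks absolute values up to 0.5. Most synthetases lie in the band in all 3 panels. To its right in each lie CHAC1, DDIT4, WARS1 and ASNS, and to its left SHMT1.

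ATF4 itself (chr22:39915700-39918688 on GRCh37) had the highest level per transcript length of all members, 303 CPM per kb in DMSO. Its counts were 418, 432, 445 and 426 CPM in the DMSO replicates, 402, 428, 446 and 466 under RA, 345, 348, 389 and 385 under PB and 377, 361, 411 and 418 under PB+RA. RA overlapped DMSO, and PB libraries all lay below it. The log2 fold change was 0.01 ± 0.06 (adjusted p = 0.942) for RA, -0.23 ± 0.06 (adjusted p = 0.0038) for PB and -0.16 ± 0.06 (adjusted p = 0.0237) for PB+RA, so ATF4 was not called in any comparison. Of its 50-base windows 32.9% also occur in other transcripts, 21.0% in the pseudogene ATF4P3, so its counts are uncertain to that extent. The pseudogene itself averaged 0.126 CPM.

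CHAC1, a glutathione-degrading enzyme and a target of ATF4, rose with each treatment. It was measured at 8.51, 8.397, 9.71 and 7.896 CPM in the DMSO replicates, 20.8, 20.1, 23.2 and 27.7 under RA, 13.3, 12.7, 13.2 and 14.3 under PB and 23.1, 20.7, 24.4 and 19.8 under PB+RA. All treated libraries lay above all DMSO libraries, and RA and PB+RA overlapped each other. The rise was 1.40 ± 0.11 (adjusted p = 1.1e-07) with RA, 0.63 ± 0.11 (adjusted p = 0.000106) with PB and 1.32 ± 0.11 (adjusted p = 1.14e-08) with PB+RA on the log2 scale. DDIT4, an inhibitor of mTORC1 that is also induced by other stresses, was at 51.1, 68.4, 56.3 and 56.3 CPM in the DMSO replicates, 83.6, 104, 110.1 and 105 under RA, 90.95, 112, 101 and 94.8 under PB and 126, 124, 111 and 111 under PB+RA. On the log2 scale it rose by 0.78 ± 0.10 (adjusted p = 1.97e-05) under RA, 0.78 ± 0.10 (adjusted p = 5.17e-06) under PB and 1.00 ± 0.10 (adjusted p = 1.49e-07) under both, and again no treated library overlapped DMSO.

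TRIB3, a pseudokinase that restrains ATF4 activity, was called higher with RA alone. Its values were 17.6, 23.1, 21.3 and 18.9 CPM in the DMSO replicates, 30.2, 42.3, 39.1 and 35.3 under RA, 17.98, 23.3, 20.9 and 17.9 under PB and 22.1, 24.1, 25.9 and 23.7 under PB+RA. The RA libraries stood above those of every other group, and PB and PB+RA overlapped DMSO. TRIB3 rose by 0.85 ± 0.11 (adjusted p = 3.5e-05) with RA, while the changes with PB (-0.01) and PB+RA (0.22) were not called. In PB+RA it was lower than in RA, at -0.64 ± 0.11 (adjusted p = 0.000166). DDIT3, the stress factor CHOP, was called after PB+RA alone. It was at 22.2, 22.6, 24.7 and 18.6 CPM in the DMSO replicates, 24.8, 30.4, 31.6 and 29.8 under RA, 25.4, 28.9, 25.3 and 24.3 under PB and 36.1, 31.9, 38.8 and 30.4 under PB+RA, with no overlap between PB+RA and DMSO. The change under both agents was 0.61 ± 0.10 (adjusted p = 5.36e-05). Its changes with RA (0.39, adjusted p = 0.00668) and PB (0.24, adjusted p = 0.061) were under the fold minimum. Of the DDIT3 exon bases 27.2% lie opposite exons of the synthetase gene MARS1, which averaged 356 CPM against 27.9 for DDIT3, and the strand used in counting was not given in the sources used here.

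**Figure D2:**
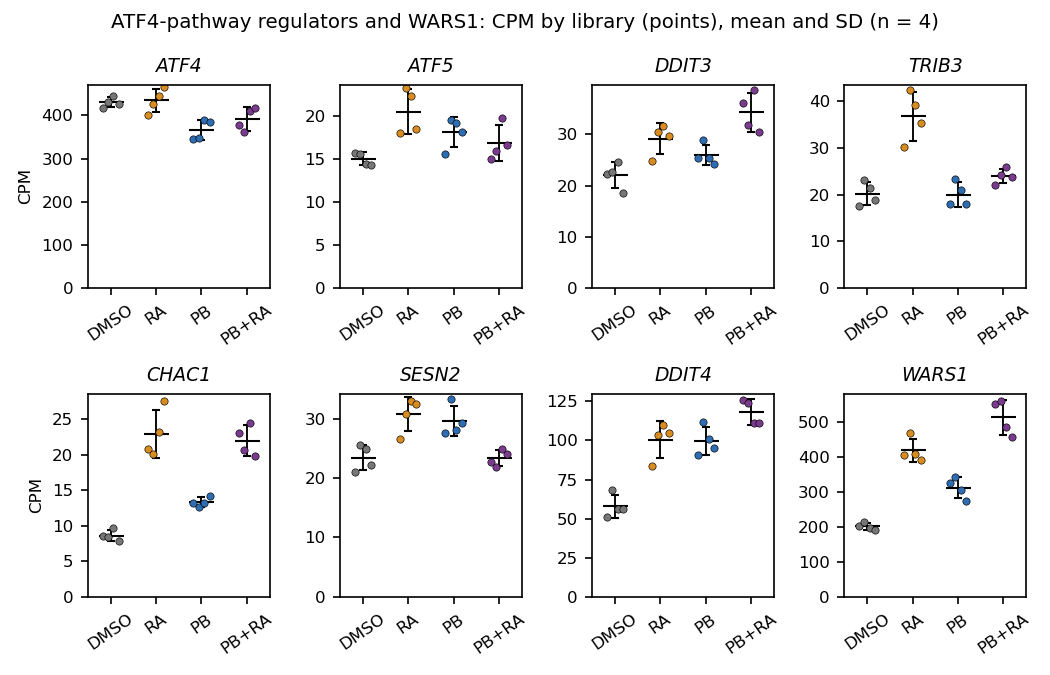
CPM of the 7 regulators and WARS1 in each library (points), with the mean and SD of each group (n = 4) and a y axis from 0. RA libraries of TRIB3 lie above all others, ATF4 stays within 345 to 466 CPM, and SESN2 is higher in RA and PB than in DMSO or PB+RA.

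The joint effect of the agents fell short of the sum of the single effects in most regulators. An interaction was computed as the log2 fold change of PB+RA minus the sum of those of PB and RA, and it was called in 6 of 40 members, all below the sum, beside 3.02% of all genes called below and 0.415% above. It was called in 5 of the 7 regulators and in PSAT1. The largest was in SESN2, a leucine-sensing inhibitor of mTORC1, which lies outside the naming rule because no comparison with DMSO was called, and is named for its interaction. SESN2 was at 21.1, 25.6, 24.95 and 22.1 CPM in the DMSO replicates, 26.7, 30.7, 33.05 and 32.5 under RA, 27.7, 33.3, 28.04 and 29.3 under PB and 22.7, 21.8, 24.9 and 24.03 under PB+RA. Each agent alone gave values above DMSO without overlap, at 0.38 ± 0.09 (adjusted p = 0.00259) for RA and 0.34 ± 0.09 (adjusted p = 0.00331) for PB, both under the fold minimum. With both agents the libraries overlapped DMSO again, at -0.03, and the interaction was -0.75 ± 0.12 (adjusted p = 0.00187). It remained called without any 1 library, within replicates 1 and 2 (-0.76, adjusted p = 0.0352) and within replicates 3 and 4 (-0.67, adjusted p = 0.000883).

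The other interactions were less firm in fits that did not pair libraries by replicate number. With the replicate number as a block, which compares libraries of the same number, each was called. The adjusted p was then 0.00079 for CHAC1, 6.84e-05 for TRIB3, 0.000973 for DDIT4, 0.00189 for ATF5 and 3.99e-05 for PSAT1. Without the block, the interaction for CHAC1 was -0.70 ± 0.15 (adjusted p = 0.0101), at -0.53 within replicates 1 and 2 (adjusted p = 0.0904) and -0.79 within replicates 3 and 4 (adjusted p = 0.0136). TRIB3 had -0.62 ± 0.16 (adjusted p = 0.0335), and it missed the threshold without any of 11 libraries (DMSO replicates 1, 3 and 4, RA 2, 3 and 4, PB 2 and 3, PB+RA 1, 2 and 4), where it was -0.62 to -0.52 with adjusted p of 0.0541 to 0.103. It was called in neither pair, at -0.68 (adjusted p = 0.276) within replicates 1 and 2 and -0.499 (adjusted p = 0.0288), just inside the fold minimum, within 3 and 4. DDIT4 had -0.57 ± 0.14 (adjusted p = 0.0231), missed it without any of 9 libraries (DMSO 1, 3 and 4, RA 2, 3 and 4, PB 2 and 3, PB+RA 4), at -0.55 to -0.47 with adjusted p of 0.0521 to 0.0817, and was -0.35 (adjusted p = 0.525) within replicates 1 and 2 but -0.72 (adjusted p = 8.91e-06) within 3 and 4. ATF5, a factor related to ATF4 that is also named only for its interaction, was at 15.7, 15.6, 14.4 and 14.3 CPM in the DMSO replicates, 17.98, 23.2, 22.2 and 18.4 under RA, 15.6, 19.5, 19.2 and 18.1 under PB and 14.99, 15.9, 19.8 and 16.6 under PB+RA. Of its exon bases 19.5% lie opposite exons of NUP62, which averaged 109 CPM against 17.6 for ATF5, so its counts are uncertain in the same way as those of DDIT3. The interaction was -0.58 ± 0.15 (adjusted p = 0.0336) and was lost without any of 11 libraries (DMSO 1, 3 and 4, RA 2 and 3, PB 2, 3 and 4, PB+RA 1, 2 and 4), at -0.57 to -0.49 with adjusted p of 0.0635 to 0.11. It was -0.59 (adjusted p = 0.147) within replicates 1 and 2 and -0.51 (adjusted p = 0.0432) within 3 and 4. Without 1 library the count of 6 became 2 to 7. It was 2 without DMSO replicate 3 or PB replicate 2, and 3 without DMSO 1 or 4, RA 2 or 3, PB 3, or PB+RA 1 or 4. With no fold minimum 8 passed below the sum and 0 above, beside 4.35% and 0.947% of all genes.

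**Figure D3:**
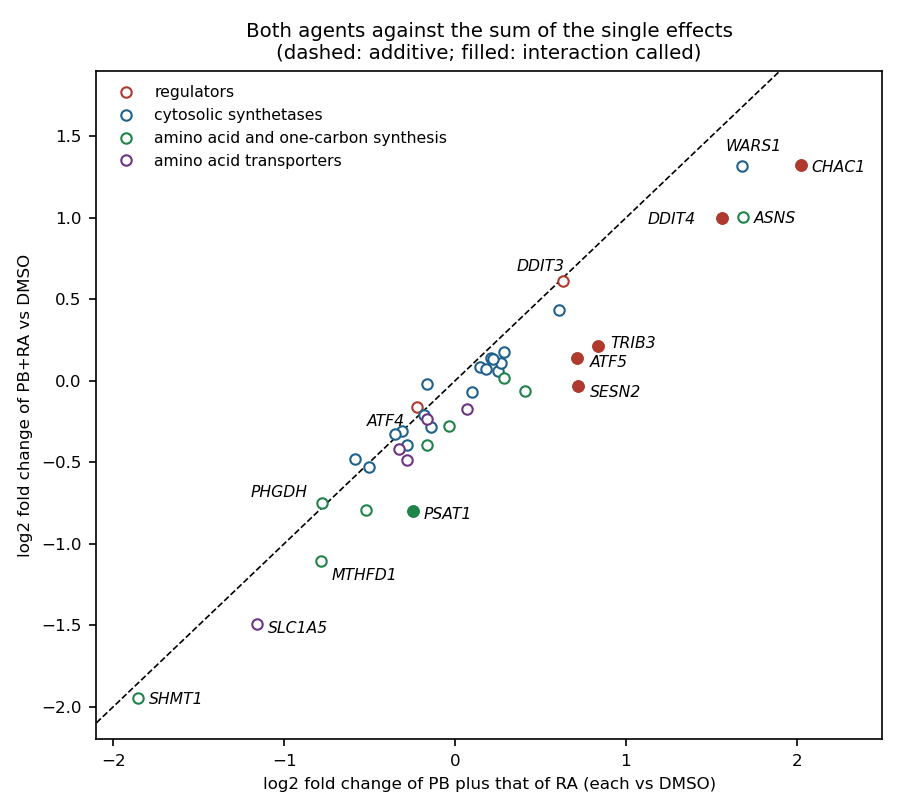
Log2 fold change of PB+RA against DMSO (y axis) plotted on the sum of those of PB and RA (x axis) for the 40 tested members, coloured by class. Points below the dashed line are members whose joint effect was under the sum, and the 6 filled points are those called. The axes share the same DMSO libraries.

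A list of further genes often given as ATF4 targets, 21 of them tested, showed 9 called higher and 0 lower under RA, beside 10.8% and 2.54% of all genes. PB gave 3 and 2 (16.9% and 11.3%), and PB+RA 5 and 2 (24% and 17.9%). Against RA, PB+RA had 1 higher and 10 lower (14.9% and 14.1%), and 5 interactions were called below the sum and 0 above (3.02% and 0.415%). GDF15, a stress-induced cytokine, averaged 0.5697 CPM under DMSO, 4.98 under RA, 0.618 under PB and 3.42 under PB+RA. Its rise under both agents was 2.54 ± 0.19 (adjusted p = 4.18e-09). VLDLR, a lipoprotein receptor, averaged 15.6, 31.6, 50.7 and 71.99 CPM in the same order, with a rise of 2.18 ± 0.08 (adjusted p = 1.19e-12). NUPR1, FGF21 and SLC7A3 were too low to be tested.

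Among the synthetases, the enzymes that load amino acids onto tRNA, WARS1 was the exception to a flat pattern. WARS1 (chr14:100800127-100843142), the tryptophanyl-tRNA synthetase, is known to be induced by interferon as well as by ATF4. It was measured at 204, 215, 196 and 193 CPM in the DMSO replicates, 408, 469, 411 and 393 under RA, 328, 344, 307 and 275 under PB and 552, 560.3, 487 and 459 under PB+RA. The 4 groups were ordered DMSO, PB, RA, PB+RA, and only RA and PB+RA overlapped. WARS1 rose by 1.05 ± 0.08 (adjusted p = 1.25e-07) with RA, 0.63 ± 0.08 (adjusted p = 4.87e-06) with PB and 1.32 ± 0.08 (adjusted p = 4.09e-10) with PB+RA, a 2.497-fold increase. PB+RA also exceeded PB by 0.69 ± 0.08 (adjusted p = 5.55e-06), while the difference from RA (0.27, adjusted p = 0.00772) was under the fold minimum.

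AARS1, the alanyl-tRNA synthetase, was the only synthetase called lower. It stood at 289, 307, 281 and 295 CPM in the DMSO replicates, 253, 281, 272 and 276 under RA, 207, 218, 240.4 and 237 under PB and 199.7, 189.6, 224 and 216 under PB+RA, and every treated library lay below DMSO. The fall with PB+RA was -0.53 ± 0.06 (adjusted p = 9.93e-07), close to the fold minimum. It was -0.64 within replicates 1 and 2 and -0.46 within replicates 3 and 4, where it was no longer called. With PB it was -0.38, not called, and -0.50 and -0.31 within those pairs, the first just past the minimum. FARSB, a phenylalanyl-tRNA synthetase subunit, was just inside the minimum at -0.48 ± 0.05 (adjusted p = 3.04e-07). It passed without any of 8 libraries (DMSO replicates 1 and 3, RA 1 and 2, PB 2 and 4, PB+RA 1 and 2), at -0.53 to -0.50, and within replicates 3 and 4 (-0.54) but not 1 and 2 (-0.46). CARS1, for cysteine, was at 0.37, 0.24 and 0.43 with RA, PB and PB+RA, with groups that did not overlap DMSO, and was not called.

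The other 14 tested synthetases moved little. Their log2 fold changes lay between -0.39 (IARS1) and 0.18 (HARS1) with PB+RA, between -0.21 (KARS1) and 0.27 (LARS1) with PB, and between -0.28 (FARSA) and 0.24 (MARS1) with RA. With no fold minimum, 5 of the 18 passed the adjusted p as higher and 7 as lower after PB+RA, beside 34.7% and 31.4% of all genes. Those 14 included isoleucyl-, lysyl- and threonyl-tRNA synthetase (IARS1, KARS1 and TARS1) at -0.39, -0.32 and -0.28. The summed CPM of the class was 4481 ± 207 in DMSO, 4720.4 ± 235 under RA, 4539 ± 168 under PB and 4608 ± 177 under PB+RA (SD, n = 4), and these ranges overlapped. Per transcript length in DMSO, the highest levels were those of SARS1, GARS1 and FARSA, at 209.7, 163 and 143 CPM per kb, and the lowest those of CARS1 and FARSB, at 18.3 and 27.8.

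Calls were few in every subgroup of the synthetases. Of the 9 tested class I enzymes 1 was called higher after PB+RA and 0 lower, and of the 9 class II enzymes 0 and 1. The shares of all genes were 24% and 17.9%. None of the 7 members of the multisynthetase complex in the set (EPRS1, IARS1, KARS1, LARS1, MARS1, QARS1 and RARS1) was called in any of the comparisons. Of 4 partners of that complex, 3 were called lower after PB+RA (17.9% of all genes), including EEF1E1, a scaffold protein, at -0.55 ± 0.11 (adjusted p = 0.000312). Of the 12 synthetases commonly listed as ATF4 targets, 1 rose (WARS1) and 1 fell (AARS1) after PB+RA, beside 24% and 17.9% of all genes. Of the members with the composite element printed above, CHAC1 and ASNS were called higher, AARS1 lower and IARS1 not called.

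**Figure D4:**
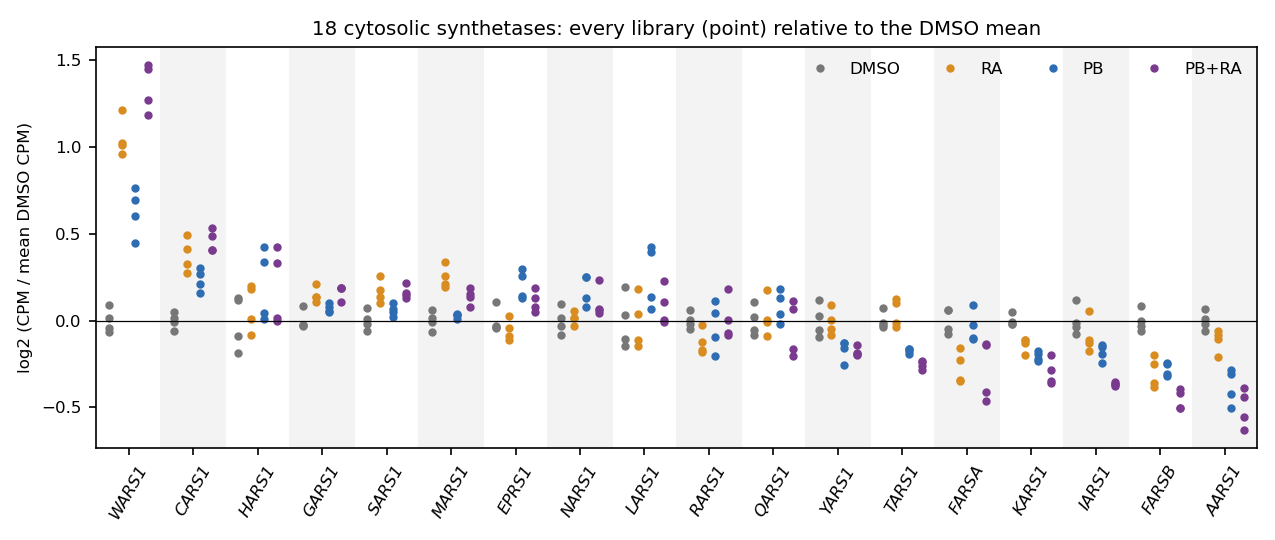
Log2 of each library's CPM over the mean DMSO CPM (y axis) for the 18 tested cytosolic synthetases (x axis), ordered by their change with PB+RA. WARS1 stands above 0 in all treated libraries, AARS1 below, and most others stay within 0.5 of 0.

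VARS1 (chr6:31745295-31763529) had 1 count over the 16 libraries. Of the 8 protein-coding genes of the count table within 100 kb of it, 5 also had under 10 counts per library on average, among them LSM2 with 1 count in all. No level was read from its counts.

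Serine synthesis from glucose runs through PHGDH, PSAT1 and PSPH, and PB lowered the first of these. PHGDH (chr1:120191034-120286841), the entry enzyme, had the second highest level per length in DMSO, 220.1 CPM per kb. It was at 405, 416, 418 and 403 CPM in the DMSO replicates, 443, 482, 454 and 458 under RA, 211, 203, 218 and 227 under PB and 242, 261, 247 and 245 under PB+RA. The PB and PB+RA libraries lay far under those of DMSO and RA, and RA lay slightly above DMSO. On the log2 scale the change in PHGDH was -0.93 ± 0.04 (adjusted p = 2.46e-10) under PB, -0.75 ± 0.04 (adjusted p = 3.18e-10) under both agents and 0.15 under RA. The interaction was 0.03 ± 0.06 (adjusted p = 0.866).

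PSAT1, the next enzyme, fell when both agents were present. Its values were 205, 233, 192 and 186 CPM in the DMSO replicates, 203, 227, 215 and 202 under RA, 168, 183, 151 and 166 under PB and 106, 124, 126 and 122 under PB+RA, and the PB+RA libraries lay below all others. The log2 fold change was 0.04 with RA, -0.29 with PB (adjusted p = 0.00404, under the fold minimum) and -0.80 ± 0.08 (adjusted p = 1.05e-07) with PB+RA. The interaction, -0.55 ± 0.11 (adjusted p = 0.00648), was called, and it lay at -0.50 to -0.49 and under the minimum without DMSO replicate 3, PB replicate 2 or PB+RA replicate 1, and was -0.60 within replicates 1 and 2 and -0.46 within 3 and 4. Against PB the difference was -0.51 ± 0.08 (adjusted p = 7.73e-05), and it fell inside the fold minimum, at -0.50 to -0.46, without any of 7 libraries (DMSO replicates 1 and 3, RA 3 and 4, PB 1 and 2, PB+RA 1), and was -0.63 within replicates 1 and 2 and -0.37 within 3 and 4. PSPH, the last enzyme, was at a mean of 33.3 ± 2.03 CPM in DMSO, 43.6 ± 3.75 under RA, 33.99 ± 3.19 under PB and 32.6 ± 0.977 under PB+RA (SD, n = 4) and was not called. Its interaction of -0.47 (adjusted p = 0.0155) and its difference between PB+RA and RA of -0.44 passed the fold minimum, both at -0.51, only without RA replicate 1.

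Of the enzymes that turn serine into glycine and one-carbon units, SHMT1 showed the deepest fall of all members. SHMT1 (chr17:18231174-18266877), the cytosolic serine hydroxymethyltransferase, was at 24.9, 26.3, 22.4 and 25.5 CPM in the DMSO replicates, 17.5, 19.4, 15.3 and 16.3 under RA, 9.27, 10.7, 9.65 and 10.2 under PB and 5.33, 6.29, 6.91 and 7.69 under PB+RA. The 4 groups did not overlap and were ordered DMSO, RA, PB, PB+RA. Under both agents the fold against DMSO was 0.259, a log2 change of -1.95 ± 0.11 (adjusted p = 1.12e-10). Under the single agents it was -1.31 ± 0.10 (adjusted p = 2.97e-08) for PB and -0.54 ± 0.10 (adjusted p = 0.000601) for RA. The RA value was -0.48 within replicates 1 and 2, inside the fold minimum, and -0.66 within 3 and 4. The difference of PB+RA from PB was -0.64 ± 0.11 (adjusted p = 0.000228), which was -0.80 within replicates 1 and 2 and -0.48, not called, within 3 and 4. Of the SHMT1 exon bases 2.81% lie opposite exons of SMCR8, which averaged 29.6 CPM against 14.6 for SHMT1.

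SHMT2, the mitochondrial enzyme, followed PB but not RA. It was at 258, 269, 273 and 258 CPM in the DMSO replicates, 283, 318, 317 and 301 under RA, 149, 156, 173 and 164 under PB and 145, 151, 167 and 159 under PB+RA. PB and PB+RA libraries overlapped each other and lay below all others, at -0.72 ± 0.06 (adjusted p = 4.5e-08) and -0.79 ± 0.06 (adjusted p = 4.38e-09), while RA was at 0.19. MTHFD1, the cytosolic trifunctional folate enzyme, stood at 350.0, 371, 328 and 352 CPM in the DMSO replicates, 273, 297, 272 and 268 under RA, 253, 268, 258 and 254 under PB and 162, 179, 165 and 156 under PB+RA. Its fall with PB+RA was -1.11 ± 0.05 (adjusted p = 2.58e-11), whereas PB (-0.44) and RA (-0.34) alone stayed inside the fold minimum without overlapping DMSO. The interaction was -0.32 (adjusted p = 0.0166), also inside it. MTHFD2, its mitochondrial counterpart and a frequently cited ATF4 target, changed by -0.39 ± 0.05 with PB+RA and was not called. Of its 50-base windows 36.2% also occur in other transcripts, mainly of SLC4A5 on the opposite strand.

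**Figure D5:**
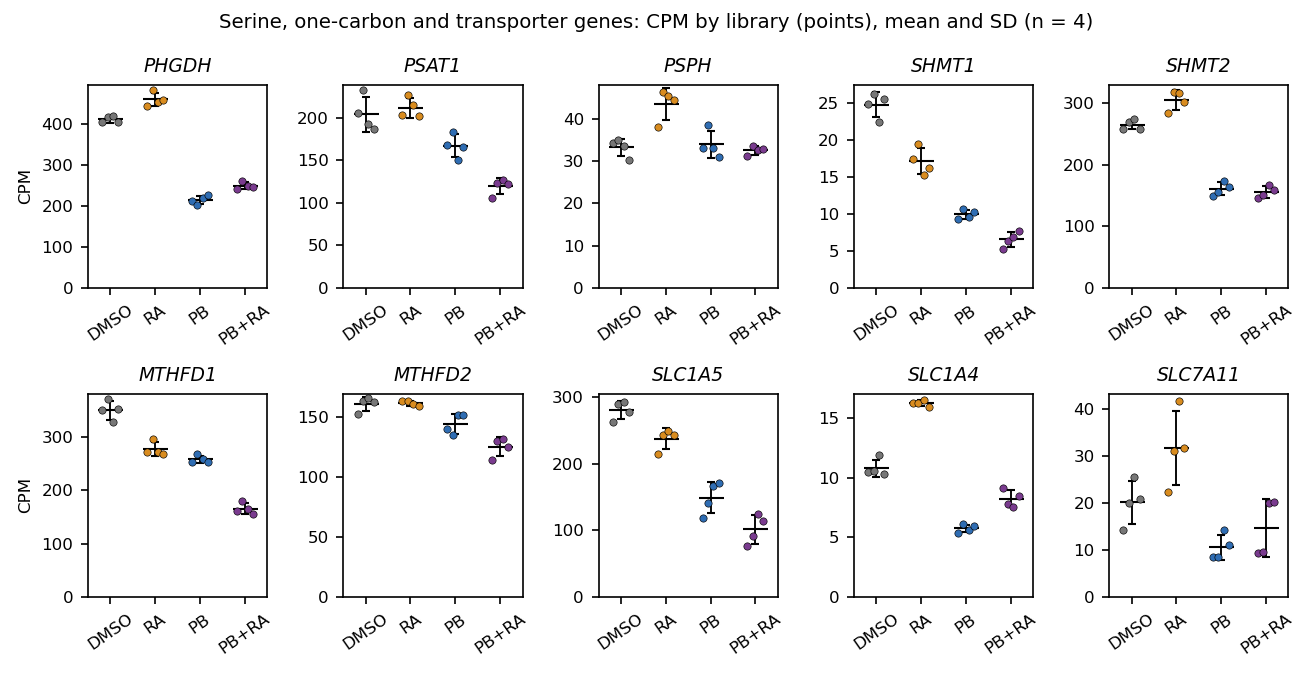
CPM of 7 serine and one-carbon genes and 3 transporters in each library (points), with mean and SD of each group (n = 4) and y axes from 0. All but PSPH are lower in PB than in DMSO without overlap, as are 24.2% of all tested genes. PHGDH, PSPH, SHMT2 and SLC1A4 are higher in RA than in DMSO without overlap, as are 19.3% of all tested genes.

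Proliferation markers were lower in the same groups as these enzymes, with MKI67 at 149.6 CPM in PB and 63.1 in PB+RA against 456 in DMSO, and their part in the result was not tested. Of 8 tested genes of the folate cycle, 0 were called higher and 3 lower with PB+RA, 0 and 2 with PB, and 0 and 0 with RA, where the shares of all genes called lower were 17.9%, 11.3% and 2.54%. TYMS, which makes thymidylate for DNA synthesis, fell most, by 3.14 ± 0.19 on the log2 scale (adjusted p = 9.84e-10). TYMS averaged 169 CPM in DMSO and 19.6 in PB+RA.

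ALDH18A1 and PYCR1, enzymes of proline synthesis, were not called in any comparison, with changes of -0.28 and 0.02 after PB+RA. ASNS, asparagine synthetase and a classic ATF4 target, was the synthesis gene called higher. It was listed at 0.922, 0.856, 0.791 and 1.39 CPM in the DMSO replicates, 1.56, 2.26, 2.298 and 2.43 under RA, 1.46, 1.596, 1.28 and 1.58 under PB and 1.95, 2.04, 2.02 and 2.101 under PB+RA, and its log2 fold changes were 1.10 ± 0.19 (adjusted p = 0.000309) with RA, 0.59 ± 0.19 (adjusted p = 0.0181) with PB and 1.01 ± 0.19 (adjusted p = 0.000183) with PB+RA. The PB call was lost without DMSO replicate 1, 2 or 3 or PB replicate 2 or 4, at 0.47 to 0.53 with adjusted p of 0.0533 to 0.0736. Within replicates 1 and 2 it was 0.76 (adjusted p = 0.0541) and within 3 and 4 it was 0.38 (adjusted p = 0.296). In the annotation used here, 99.5% of its 50-base windows are shared with a gene that overlaps it on the same strand and that has no row in the count table, so its counts are uncertain. The pseudogene ASNSP1 averaged 5.15 CPM over all libraries, more than ASNS itself. The level of ASNS per length, 0.415 CPM per kb in DMSO, was the lowest of the tested members.

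Of the amino acid transporters, SLC1A5, the main glutamine carrier, fell most. It was at 262, 290.0, 292 and 277 CPM in the DMSO replicates, 214, 243, 249 and 243 under RA, 119, 141, 166 and 170.4 under PB and 76.4, 91.3, 125 and 114 under PB+RA. Libraries of PB and PB+RA overlapped each other and lay below DMSO and RA. SLC1A5 changed by -0.91 ± 0.13 (adjusted p = 3.14e-05) with PB, -1.49 ± 0.14 (adjusted p = 8.56e-08) with PB+RA and -0.25 with RA. The difference between PB+RA and PB was -0.59 ± 0.13 (adjusted p = 0.00285), and without PB+RA replicate 1 it was -0.48. SLC1A4, a carrier of alanine, serine and cysteine, moved in opposite directions with the single agents. Its values were 10.5, 10.6, 11.9 and 10.3 CPM in the DMSO replicates, 16.3, 16.3, 16.5 and 15.99 under RA, 5.36, 6.095, 5.66 and 5.93 under PB and 9.18, 7.79, 7.56 and 8.51 under PB+RA, with no overlap between any groups. The change was 0.58 ± 0.08 (adjusted p = 6.24e-05) under RA and -0.91 ± 0.09 (adjusted p = 2.3e-07) under PB, and with both it was -0.42, inside the fold minimum. That value reached -0.51 without PB+RA replicate 1, and it was -0.34 within replicates 1 and 2 and -0.55, past the minimum, within 3 and 4. The RA value was 0.62 within replicates 1 and 2 and 0.49 within replicates 3 and 4. The difference of 0.49 between PB+RA and PB passed the minimum, at 0.50 to 0.53, without any of 9 libraries (DMSO 1 and 3, RA 3 and 4, PB 2, 3 and 4, PB+RA 2 and 3), and it was 0.55 within replicates 1 and 2 and 0.44 within 3 and 4. SLC1A4 had one of the lowest levels per length, 2.37 CPM per kb in DMSO.

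SLC7A11, the cystine-glutamate exchanger that feeds glutathione synthesis, varied widely between replicates. It was at 14.3, 20.1, 25.4 and 20.7 CPM in the DMSO replicates, 22.3, 30.9, 41.6 and 31.8 under RA, 8.58, 8.56, 14.2 and 10.999 under PB and 9.34, 9.48, 20.002 and 20.1 under PB+RA. In PB+RA, replicates 1 and 2 lay near the PB level and replicates 3 and 4 near the DMSO level. SLC7A11 fell with PB, at -0.93 ± 0.28 (adjusted p = 0.0125). RA gave 0.64 ± 0.27 (adjusted p = 0.0808) and PB+RA -0.48 ± 0.28 (adjusted p = 0.14), neither of them called. Taking the replicate number as a block, which compares libraries of the same number, gave 0.64 (adjusted p = 0.000244) for RA and -0.51 (adjusted p = 0.00137) for PB+RA, both called. The RA value was 0.63 within replicates 1 and 2 and 0.61 within 3 and 4. Within replicates 1 and 2 the PB+RA value was -0.89 (adjusted p = 0.00181), within 3 and 4 it was -0.27 (adjusted p = 0.18), and without PB+RA replicate 3 it was -0.70 (adjusted p = 0.0497). Against PB, PB+RA was at 0.12 (adjusted p = 0.699) within replicates 1 and 2 and 0.65 (adjusted p = 0.0207) within 3 and 4, and at 0.44 over all (adjusted p = 0.247). SLC7A5 and SLC3A2, the chains of the large neutral amino acid carrier, were at 425 ± 36.9 and 209 ± 10.4 CPM in DMSO and 384 ± 30.3 and 181 ± 7.59 in PB+RA, and were not called. The difference of PB+RA from RA in SLC7A5 was -0.31 within replicates 1 and 2 and, past the fold minimum, -0.52 within 3 and 4.

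Adding RA to PB gave 2 members higher and 4 lower than PB alone, beside 9.02% and 7.27% of all tested genes (6 and 12, beside 17.2% and 20.9%, with no fold minimum). Those higher were CHAC1 and WARS1, and those lower were PSAT1, SHMT1, MTHFD1 and SLC1A5. Without PB+RA replicate 1 the 4 became 2, since PSAT1 and SLC1A5 no longer passed the fold minimum. Adding PB to RA gave 0 higher and 9 lower than RA alone, beside 14.9% and 14.1% (2 and 24, beside 26.5% and 27.9%, with no fold minimum). The 9 were TRIB3, PHGDH, PSAT1, SHMT1, SHMT2, MTHFD1, SLC7A11, SLC1A5 and SLC1A4. Their changes ran from -0.64 (TRIB3) to -1.41 (SHMT1), and 30 of the 40 members had a value below 0. No synthetase was called in that comparison. The summed CPM of the synthesis class was 1815 ± 58.2 in DMSO, 1853 ± 76.9 under RA, 1379 ± 33.5 under PB and 1196 ± 48.9 under PB+RA (SD, n = 4), with PB+RA below PB, and both below DMSO and RA, in every library. The transporters summed to 945 ± 42.5, 1019 ± 52.7, 714 ± 28.7 and 689 ± 24.5 CPM in the same order.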

How the data were processed

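RNA-seq of 16 samples of 1 cell line was used, grouped and numbered by the sample titles. Per the labels and the study's methods, polyadenylated RNA was made into directional libraries, sequenced as paired ends, trimmed with Trim Galore 0.6.4 and aligned to hg19 with STAR. The submitters' processing notes give STAR 2.6.1d and the study's methods an earlier release letter. The annotation release and the strand column of the counts are not given in the sources used here. The deposited counts are unnormalized reads per gene, and the deposited CPM were made by the authors from each library's total, which they matched within 5e-12. A deposited table of the authors' own comparisons (log2 fold changes and adjusted p-values from DESeq2 1.32.0) was not used.

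Counts were tested in R 4.3.3 with edgeR 4.0.16: filterByExpr (15415 of 27037 symbols), TMM scaling and 1 robust quasi-likelihood fit over all 16 samples with group as the only term. Adjusted p are Benjamini-Hochberg values over all genes tested, and a call needed an adjusted p below 0.05 with an absolute log2 fold change above 0.5. Values after ± are SE for log2 fold changes and SD for CPM. The fit was tested on simulated data. Alternatives were limma 3.58.1 (voom), DESeq2 1.42.0, RLE scaling, other filters and fold minima, the groups compared alone, a replicate block, GC and length correction with that block, replicate pairs and leaving out each library.

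Members and lists were chosen with earlier results of these data known, so their counts are descriptions. The members' values are given in every sample for those called against DMSO with CPM that did not overlap, and for ATF4. SESN2 and ATF5 were added after their values were seen, as were AARS2, ALDH4A1 and PYCR3 among other gene lists, of which otherwise at most the 2 called genes with the largest change were named (some are not reported here). The same replicate number in the titles paired the samples: deviations from group means correlated at r = 0.331 to 0.573 in all 24 same-number pairs. Where nothing says which passage a number was, p-values measure only the spread between these samples. Gene positions are GENCODE v44 models on GRCh37 and levels per length use their canonical transcripts. No 2 libraries were alike within sampling noise. A gene with no counts could have had as many as 3 by counting error alone.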

Additional observations from a re-analysis of the deposited data

Results flagged for a closer look

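Libraries of a group were checked for a value far from the other 3 by Dixon's test, over 160 groups of 4, and 7 were found. Chance alone gives about 1 in 20. EPRS1 was at 269 CPM in DMSO replicate 2 against 242 to 244 in the others, and GARS1 was at 419.9 there against 388 to 389. GARS1 was at 426 in PB+RA replicate 1 against 451 to 452. In PB+RA replicate 2, NARS1 was at 179 against 157 to 159.9 and ALDH18A1 at 179 against 151 to 153. MTHFD1 was at 297 in RA replicate 2 against 268 to 273. SLC1A4 was at 11.9 in DMSO replicate 3 against 10.3 to 10.6. MTHFD1 and SLC1A4 were the 2 of these genes with a call against DMSO. SLC1A4 kept its calls without DMSO replicate 3. MTHFD1 was called with PB+RA, a comparison that does not hold RA replicate 2, so leaving that library out could hardly change the call.

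The effect of RA differed between cells with and without PB, by the interaction test, in 6 members: SESN2 (-0.75), CHAC1 (-0.70), TRIB3 (-0.62), ATF5 (-0.58), DDIT4 (-0.57) and PSAT1 (-0.55). All lay below the sum of the single effects.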

How the results depend on the processing

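No call of a member turned its direction under any alternative. Of 50 called results, 7 were lost without some 1 library and 11 under some other alternative apart from a fold minimum of 1. With no fold minimum, members higher and lower numbered 11 and 17 for PB, 17 and 5 for RA, 9 and 19 for PB+RA, 6 and 12 against PB, and 2 and 24 against RA. With a log2 fold minimum of 1 they numbered 0 and 1, 3 and 0, 3 and 3, 0 and 0, and 0 and 3, and the interactions below the sum 0. With replicates 1 and 2 only, RA had 0 lower and 2 interactions were below the sum. With replicates 3 and 4 only, 2 members were lower against PB. Leaving out 1 library gave 2 to 4 lower against PB and 2 to 7 interactions below the sum. The cause of these differences was not tested. Shares of all genes were not worked out for the fold minimum of 1, the replicate pairs or the fits without 1 library. The counts there describe the members alone and cannot be set against all genes. With the replicate block, the counts were 4 and 6 for PB, 7 and 1 for RA, 5 and 8 for PB+RA, 2 and 4 against PB, 0 and 9 against RA and 6 interactions, and apart from SLC7A11 the block changed no call of a member. Over all genes the block called 30.8% for PB, 16.3% for RA, 43.9% for PB+RA, 19% against PB and 31.6% against RA in either direction. It moved the share of all genes with a called interaction from 3.44% to 7.6%. AARS1 (-0.46) with a mean of at least 10 CPM, SLC1A4 with RA (0.46) after GC and length correction with that block, and ATF5's interaction (-0.53, adjusted p = 0.0628) with no filter were lost. Depth limits ASNS most, which stood at 0.791 to 2.43 CPM.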

Other observations

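Genes that control eIF2, upstream of ATF4, were mostly not called. Of 14 tested, PB raised 1 and RA raised 1, with 0 lower in either case. Of all genes, 16.9% were called higher and 11.3% lower with PB, and 10.8% and 2.54% with RA. Under both agents 2 rose and 2 fell, where the shares of all genes were 24% and 17.9%. EIF2S1, the eIF2 alpha subunit, averaged 229 CPM in DMSO and 139.6 in PB+RA, a change of -0.74 ± 0.05 (adjusted p = 1.77e-09). IMPACT, an inhibitor of the eIF2 kinase GCN2, went from 16.6 to 28.1, a rise of 0.73 ± 0.08 (adjusted p = 2.67e-07). Of 14 genes of the unfolded protein response of the endoplasmic reticulum, 0 were called with RA (10.8% of all genes higher, 2.54% lower). With PB 1 was higher and 2 lower (16.9% and 11.3%), and with PB+RA 2 and 3 (24% and 17.9%). Under both agents DNAJB9, a chaperone partner, changed by 1.33 ± 0.08 (adjusted p = 3.17e-10) and PDIA6, a disulfide isomerase, by -0.75 ± 0.05 (adjusted p = 2.33e-09).

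The mitochondrial synthetases, 17 of them tested, had 0 called for PB (16.9% of all genes higher, 11.3% lower). RA gave 1 higher and 1 lower (10.8% and 2.54%). For PB+RA 2 were higher and 2 lower, beside 24% and 17.9% of all genes. Under both agents NARS2, for asparagine, changed by 0.71 ± 0.09 (adjusted p = 3.45e-06). With RA the call lower was AARS2, for alanine, at -0.79. Of 8 genes of glutamine and proline metabolism, 0 were called with PB or PB+RA, beside 28.2% and 41.9% of all genes in either direction. With RA 2 were lower (2.54% of all genes), ALDH4A1 (-0.73) and PYCR3 (-0.57).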
